A study of Mus musculus with 31 samples.

Results

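The genes described here encode nuclear subunits of mitochondrial complexes I, III and IV and of ATP synthase. They were followed in mouse embryonic stem cells (mESCs, line DTCM23/49 XY) that carry a conditional Dicer1 mutation. Members were the protein-coding genes whose symbols start with Ndufa, Ndufb, Ndufc, Ndufs, Ndufv, Uqcr, Atp5 or Cox4 to Cox8, without the Ndufaf assembly factors. A gene also needed a mean of at least 1 TPM, a share of a library's transcripts scaled by transcript length and summed here over a gene's exonic entries, across 16 libraries. Of 82 genes named in this way 76 reached that level, among 21821 genes and entries tested. Of the latter 11279 are protein-coding genes, while all members are protein-coding. Values given below for all tested genes include the noncoding and unmatched entries. Shares past the threshold and median differences over all coding genes alone are not given here. The 2 groups were Dicer-depleted cells, in which 800 nM 4-hydroxytamoxifen was used to induce loss of Dicer1 function, and wild-type (WT) cells. The labels give 8 days of treatment for both groups, and name the source of both as a conditional Dicer mutant. Each group had 2 biological replicates, called cultures here. Cells received the nucleoside 4-thiouridine (4sU, 200 uM) in a pulse of 10 or 15 minutes. Their RNA was then parted into a preexisting fraction, made before the pulse, and a labelled fraction, made during it, so each genotype and fraction had 4 libraries. Lists of 4 values below give culture 1 at 10 and 15 minutes, then culture 2 at 10 and 15 minutes. The series studies how transcripts change when Dicer, the enzyme that matures microRNAs, is lost.

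Complex I takes electrons from NADH, complex III passes them to cytochrome c, and complex IV hands them to oxygen. These steps pump protons across the inner mitochondrial membrane, and ATP synthase uses the gradient to make ATP. Most subunits are encoded in the nucleus and imported, while a smaller set comes from mitochondrial DNA; the mitochondrially encoded subunits were not analysed here. mESCs grown in serum and LIF are known to use both glycolysis and respiration.

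Because Dicer depletion removes microRNAs, the seeds of abundant mESC microRNAs and their sites in the members are shown first. The mature sequences, from RefSeq on GRCm38.p6, carry the seed (bases 2 to 8) in capitals.
mmu-miR-291a-3p: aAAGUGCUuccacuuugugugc
mmu-miR-294-3p: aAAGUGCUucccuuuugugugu
mmu-miR-17-5p: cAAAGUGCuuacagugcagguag
mmu-miR-92a-3p: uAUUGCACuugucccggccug
The first pair share a seed and represent the miR-290 family. A seed match was counted in the 3′ UTR of the longest coding transcript of each gene. Such matches were few in the respiratory chain genes: 3 of 76 members (3.95%) had a miR-290 match. The share was 15.2% of the 11238 tested coding genes that had a coding transcript to search. For miR-17 the share was 2.63% of the members and 12.9% of the coding genes, and for miR-92 it was 2.63% and 6.52%. A match of any of the 3 families stood in 6 members, or 7.89%, against 25% of coding genes. The members' 3′ UTRs were also short, with a median length of 152 bases against 915 bases in coding genes, and length was not held constant in these shares.

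The 6 members with a match are shown here with the match in capitals and flanking bases in lower case, on the transcript strand. Shorter matches, other transcripts of a gene and regions outside the 3′ UTR were not searched, so other members may hold sites.
Ndufb2, miR-290, chr6:39603295-39603301, plus strand: atcaattacatAGCACTTtttggggggtt
Ndufb2, miR-17, chr6:39603296-39603302, plus strand: tcaattacataGCACTTTttggggggttg
Atp5g1, miR-290, chr11:96069423-96069429, minus strand: ctagtaatcccAGCACTTggagtatgcag
Ndufs4, miR-290, chr13:114288534-114288540, minus strand: tacgaaatcagAGCACTTagagtttacca
Ndufa10, miR-17, chr1:92439403-92439409, minus strand: cacccacccctGCACTTTgggtctctcac
Ndufa5, miR-92, chr6:24518684-24518690, minus strand: gggaattaaatGTGCAATtaaatgctctg
Uqcrfs1, miR-92, chr13:30540495-30540501, minus strand: agacttgaaagGTGCAATgtctttgatag
Positions are of the 7 matched bases on GRCm38.p6. The matches of both families in Ndufb2 overlap in 6 bases. In Ndufb2 and Atp5g1 they lie far into long UTRs, at bases 3925 of 4012 and 3675 of 4252.

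None of these 6 genes differed past the threshold between Dicer-depleted and WT cells. In preexisting RNA the log2 difference, depleted minus WT on log2(TPM + 1), was -0.61 (SE 0.365) for Ndufb2, an accessory subunit of complex I. It was -1.0 (SE 0.395) for Atp5g1, which encodes the ring-forming subunit c of ATP synthase. For Ndufs4, Ndufa5 and Ndufa10, accessory subunits of complex I, it was -0.06 (SE 0.197), -0.01 (SE 0.385) and -0.04 (SE 0.177), and for Uqcrfs1, the Rieske iron-sulfur protein of complex III, -0.20 (SE 0.271). All 6 differences were negative or close to 0. Whether loss of these microRNAs acted on the 6 genes was not tested. The limma adjusted p-values, adjusted by Benjamini and Hochberg over all genes tested as are all those given here, were 0.246 to 1.0.

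The libraries were checked before the genes were compared. Dicer1 itself was at 2.69 ± 0.671 TPM in preexisting RNA of depleted cells and 16.5 ± 1.42 TPM in WT (SD, n = 2 cultures; limma adjusted p = 0.0347). All 10 stem cell markers averaged at least 1 TPM, with sums of 1060 to 1778 TPM in depleted and 1327 to 1935 TPM in WT libraries. Of the markers of other cells, 1 of 6 for fibroblasts, 1 of 6 for primitive endoderm, 1 of 4 for trophoblast and 2 of 5 for neural or mesodermal cells averaged at least 1 TPM, while Col1a1, Col3a1, Gata6, Gata4, Cdx2, T and Sox1 were among those below it. The endoderm list summed to 3.40 to 19.0 TPM in depleted and 2.24 to 8.66 TPM in WT libraries, and the neural or mesodermal list to 8.44 to 40.1 TPM in depleted and 7.03 to 15.6 TPM in WT libraries. The fibroblast list reached 5.65 TPM in depleted and 6.32 TPM in WT libraries, and the trophoblast list 45.7 TPM in depleted and 39.7 TPM in WT libraries. The part of such cells in the members' values was not tested. Libraries did stand apart in completeness: 4 preexisting libraries had 1110 to 1547 of the tested genes listed at 0, namely 3 from depleted cells and 1 from WT, and the other 12 libraries had 397 to 800. No member was listed at 0 in any library. The depth of the libraries is unknown.

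Among the preexisting libraries the median of the respiratory chain genes was lowest in those with the most genes at 0. Their summed TPM did not follow that order. The sum was 10962 TPM in culture 1 of depleted cells at 10 minutes, with 1547 genes at 0. It was 10460 TPM in culture 1 of WT at 15 minutes, with 745 genes at 0. In preexisting RNA the median of the 76 members on log2(TPM + 1) was 4.59 and 5.38 in culture 1 of depleted cells (10 and 15 minutes) and 4.84 and 4.56 in culture 2. In WT it was 5.91 and 5.28 in culture 1 and 4.69 and 5.36 in culture 2. The groups overlapped, and the 4 libraries with over 1000 genes listed at 0 were the 4 lowest. In labelled RNA the medians were 4.76, 5.71, 5.07 and 5.67 in depleted cells, against 5.32, 5.75, 5.40 and 5.49 in WT, where the 2 depleted libraries with 10 minutes of labelling were the lowest.

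**Figure D1:**
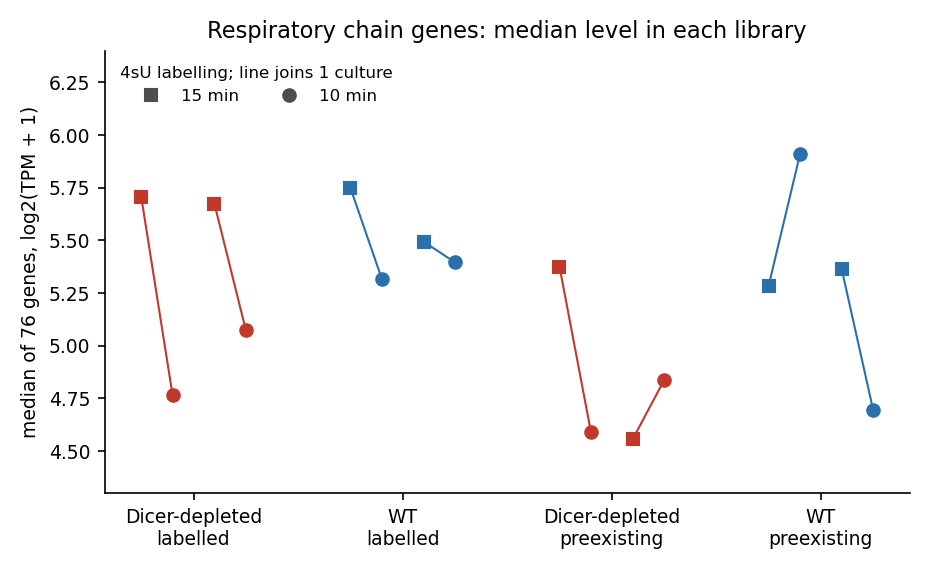
Median level of the 76 respiratory chain genes on log2(TPM + 1) in each of 16 libraries (vertical axis), by genotype and fraction (horizontal axis); squares are 15 minute and circles 10 minute libraries, red is Dicer-depleted and blue is WT, and a line joins the libraries of 1 culture. In labelled RNA the 15 minute library is above the 10 minute one in all 4 cultures, and in preexisting RNA the genotypes overlap (4.56 to 5.38 in depleted cells, 4.69 to 5.91 in WT).

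**Figure D2:**
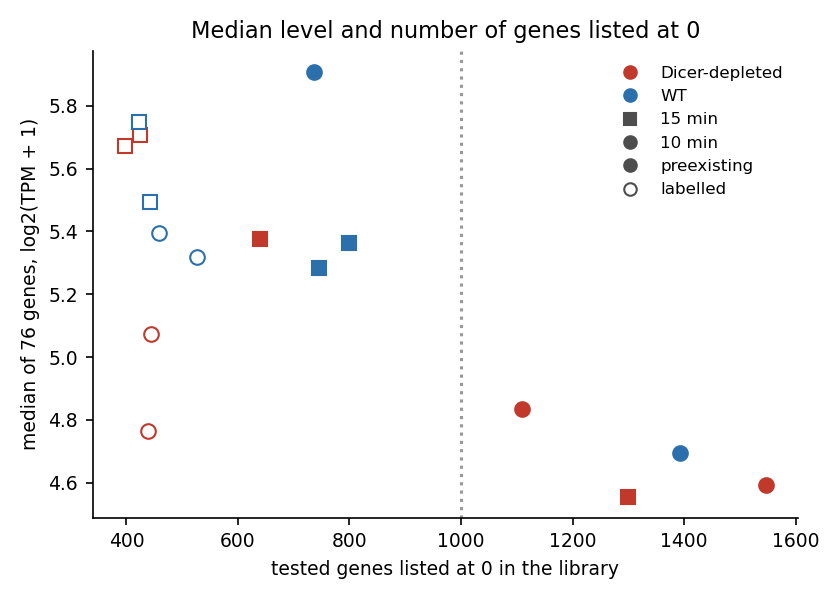
The same medians (vertical axis, log2(TPM + 1)) against the number of the 21821 tested genes listed at 0 in that library (horizontal axis); filled symbols are preexisting and open ones labelled libraries, and the dotted line marks 1000 genes. The 4 preexisting libraries right of the line, 3 Dicer-depleted and 1 WT, have medians of 4.56 to 4.84, below the 5.28 to 5.91 of the other 4 preexisting libraries.

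The members ranged from 1.33 to 4702 TPM, with a median of 40.7 TPM over their means in the 16 libraries. Atp5b, which encodes the catalytic beta subunit of ATP synthase (chromosome 10, 128083273 to 128090391, GRCm38), held 47.1% of their summed TPM. In preexisting RNA it was at 7616, 5536, 5405 and 5822 TPM in depleted cells and 6224, 5139, 6308 and 5718 TPM in WT. The genotypes overlapped (log2 difference 0.05, SE 0.126, limma adjusted p = 0.889). Its 9 isoform entries were summed, and the 1 protein-coding entry carried 12.1% of its signal, so its level rests mostly on entries annotated as noncoding. Over all members the protein-coding entries carried a median of 76% of the signal, against 76.4% in tested coding genes.

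Within ATP synthase, the next in level were Atp5h, subunit d of the peripheral stalk, at 418 TPM, and Atp5a1, the alpha subunit, at 325 TPM. Atp5h shares 59.4% of its 31-base words with other genes, one of them a pseudogene, so its level is uncertain. Its preexisting values in depleted cells of 203, 389, 1051 and 298 TPM spread more widely than the 551, 439, 229 and 372 TPM of WT cells. Subunit c is encoded by 3 genes that give the same mature protein. Atp5g3 averaged 124 TPM, Atp5g1 80.6 TPM and Atp5g2 44.2 TPM, and Atp5g2 is again uncertain because 87.7% of its words are shared. The 3 genes had preexisting log2 differences of -0.82 (SE 0.302), -1.0 (SE 0.395) and -1.29 (SE 0.334), none past the threshold.

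In complex IV the most abundant member was Cox7c at 425 TPM, followed by Cox4i1, the ubiquitous isoform of subunit 4, at 231 TPM, and Ndufa4, first assigned to complex I and now placed in complex IV, at 178 TPM. Cox7c shares 55.7% of its 31-base words with other genes, so its level is also uncertain. Among the members 7 share 50% or more of their words. They include Atp5l at 69.6%, Ndufa12 at 59.0% and the complex III gene Uqcrb at 54.3%, whose levels are uncertain in the same way. Tissue isoforms were far apart in level. Cox4i2 was at 0.227 TPM, the muscle isoform Cox6a2 at 0.0608 TPM beside 51.6 TPM for Cox6a1, and Cox7a1 at 2.05 TPM beside 15 TPM for Cox7a2. Cox8b and Cox8c were at 0.0606 and 0.00981 TPM beside 45.4 TPM for Cox8a, and Ndufa4l2 was at 0.0543 TPM. The exception was Cox6b2, known as a testis isoform, which at 58.8 TPM lay above its ubiquitous partner Cox6b1 at 20.4 TPM. Cox6b2 was the higher of the pair in each of the 16 libraries.

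Complex III was led by Uqcrh, the hinge protein, at 129 TPM, Uqcr10 at 123 TPM and the core protein gene Uqcrc2 at 76.5 TPM. Among abundant complex I genes, Ndufa7, an accessory subunit, was at 131 TPM, and Ndufab1, the mitochondrial acyl carrier protein, was at 115 TPM. The 1 protein-coding entry of Ndufa7, of 9 entries, carried 18.0% of its signal. The lowest members were Ndufa11, an accessory subunit, at 1.33 TPM, Cox7a1 at 2.05 TPM and Atp5s at 4.43 TPM. Just below the limit of 1 TPM stood Cox7b2 at 0.739 TPM, then Cox4i2 and Cox6a2.

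In preexisting RNA, subunit genes of all 4 complexes tended to be lower in Dicer-depleted cells, and 1 gene passed the test. Of 76 members 70 had a negative log2 difference, with a median of -0.44, beside a median of 0.03 over all genes tested. By complex the median was -0.61 for the 18 ATP synthase genes, -0.46 for the 14 of complex IV, -0.44 for the 8 of complex III and -0.39 for the 36 of complex I. Within complex I it was -0.22 for the 7 core subunits and -0.39 for the 29 accessory ones, and the 10 Ndufb genes had a median of -0.68. By limma, 1 member fell and 0 rose, against 0.147% of all tested genes that fell and 0.500% that rose. The values are shares of a library, so a lower share, fewer cells that express the gene and less RNA per cell cannot be told apart. P-values rest on the spread between cultures pooled over all 4 groups of genotype and fraction, and that spread may be technical. The SD between cultures of the members' median reached 0.388 in preexisting and 0.0983 in labelled RNA. The pooled spread can therefore be too small for preexisting RNA.

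The gene that fell was Ndufb6, an accessory subunit in the membrane arm of complex I (chromosome 4, 40270591 to 40279421, minus strand, GRCm38). Its preexisting level was 3.79, 12.4, 8.19 and 7.19 TPM in the depleted libraries, against 23.9, 14.9, 14.0 and 20.6 TPM in the WT libraries. Every depleted library was below every WT library. The means were 7.90 ± 0.288 TPM in depleted cells and 18.4 ± 1.47 TPM in WT (SD, n = 2; log2 difference -1.18, SE 0.192, limma adjusted p = 0.0471). In labelled RNA the same gene was at 24.3 ± 1.98 TPM in depleted cells and 23.4 ± 2.31 TPM in WT. The call is fragile: without the 4 libraries with over 1000 genes at 0, which left 1 depleted and 3 WT preexisting libraries, the difference was -0.63 (limma adjusted p = 0.257), and leaving out any 1 culture also ended it. Of its exonic bases 39.0% overlap Smim27 on the opposite strand, and whether the library kit and counting separated strands is not given in the sources used here.

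Several other members were lower on average in depleted cells without passing the test. Ndufa7 had 29.5, 114, 68.0 and 37.1 TPM in depleted preexisting libraries, against 187, 119, 82.7 and 134 TPM in WT (log2 difference -1.20, SE 0.216, limma adjusted p = 0.0639). Only the highest depleted library reached into the WT range. Most of the signal of Ndufa7 lay outside its protein-coding entry. Ndufv1, the core subunit that binds NADH and flavin, averaged 23.7 ± 4.93 TPM in depleted cells and 48.9 ± 3.11 TPM in WT (SD, n = 2; log2 difference -1.16, SE 0.218, limma adjusted p = 0.0685), with overlapping libraries. Cox7b, a small subunit of complex IV (chromosome X, 106015700 to 106022450), had 52.1, 90.8, 67.4 and 92.0 TPM in depleted libraries, against 209, 116, 134 and 139 TPM in WT (log2 difference -0.98, SE 0.181, limma adjusted p = 0.0652). Its 4 depleted libraries lay below all 4 WT libraries. The 1 protein-coding entry of Cox7b, of 3 entries, carried 31.6% of its signal.

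Cox6b2 (chromosome 7, 4751792 to 4753094) was separated in the same way, with 30.0, 41.9, 48.3 and 29.8 TPM in depleted and 63.5, 56.7, 93.0 and 73.4 TPM in WT preexisting libraries (log2 difference -0.92, SE 0.282, limma adjusted p = 0.164). Its ubiquitous partner Cox6b1 was nearly level, at 19.1 ± 0.164 TPM in depleted cells and 19.3 ± 6.34 TPM in WT (SD, n = 2). Atp5c1, the gamma subunit that forms the central stalk, had a small but separated difference, at 241, 279, 258 and 283 TPM in depleted and 321, 309, 312 and 364 TPM in WT libraries (log2 difference -0.30, SE 0.144, limma adjusted p = 0.326). In all, 5 members were lower in all 4 depleted preexisting libraries than in all 4 WT ones (Ndufb6, Cox7b, Cox6b2, Atp5c1 and the Atp5o readthrough gene, which shares its exons with Atp5o and Donson), where 2.87% of all tested genes were. None was higher in all 4, where 7.03% of tested genes were. The 4 libraries of a group come from 2 cultures and are not independent.

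**Figure D3:**
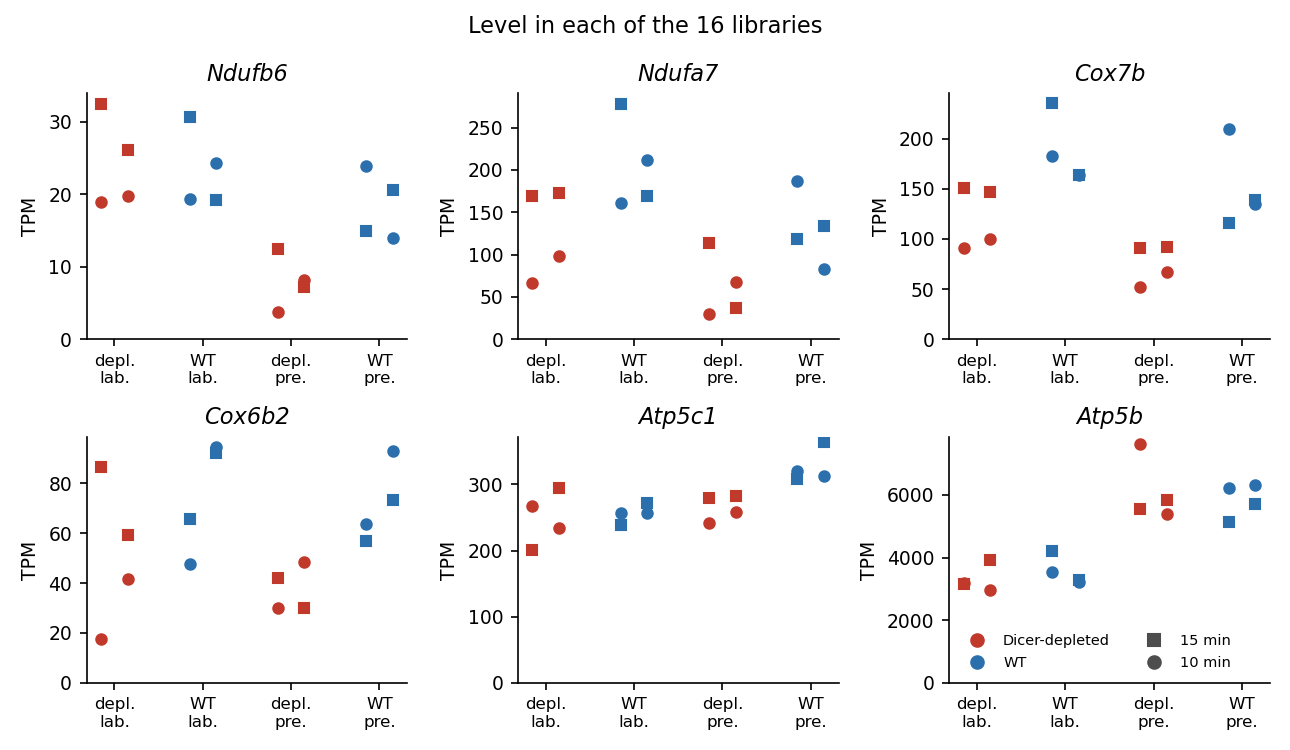
TPM (vertical axes, starting at 0) of 6 members in each of the 16 libraries, by genotype and fraction (horizontal axes: depl. is Dicer-depleted in red, WT in blue, lab. labelled, pre. preexisting); circles are 10 minute and squares 15 minute libraries. Ndufb6, Cox7b, Cox6b2 and Atp5c1 show no overlap of the genotypes in preexisting RNA, Ndufa7 overlaps in 1 depleted library, and Atp5b overlaps in both fractions.

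The largest preexisting differences by size belonged to Atp5e, the epsilon subunit of ATP synthase, at -1.40 (SE 0.440), then Atp5g2 at -1.29, Ndufa7 at -1.20, Ndufb10 at -1.19 (SE 0.428) and Ndufb6. Protein-coding entries carried 34.4% of the signal of Ndufb10. Atp5e ranged from 0.77 to 11.2 TPM in depleted and 5.69 to 35.7 TPM in WT libraries, so its groups overlapped. At the other end stood Uqcrb, a complex III subunit, at 0.15 (SE 0.252), Ndufs1, the largest core subunit, at 0.09 (SE 0.168), Atp5h at 0.07, Atp5b at 0.05 and Cox6b1 at 0.03. No member rose.

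**Figure D4:**
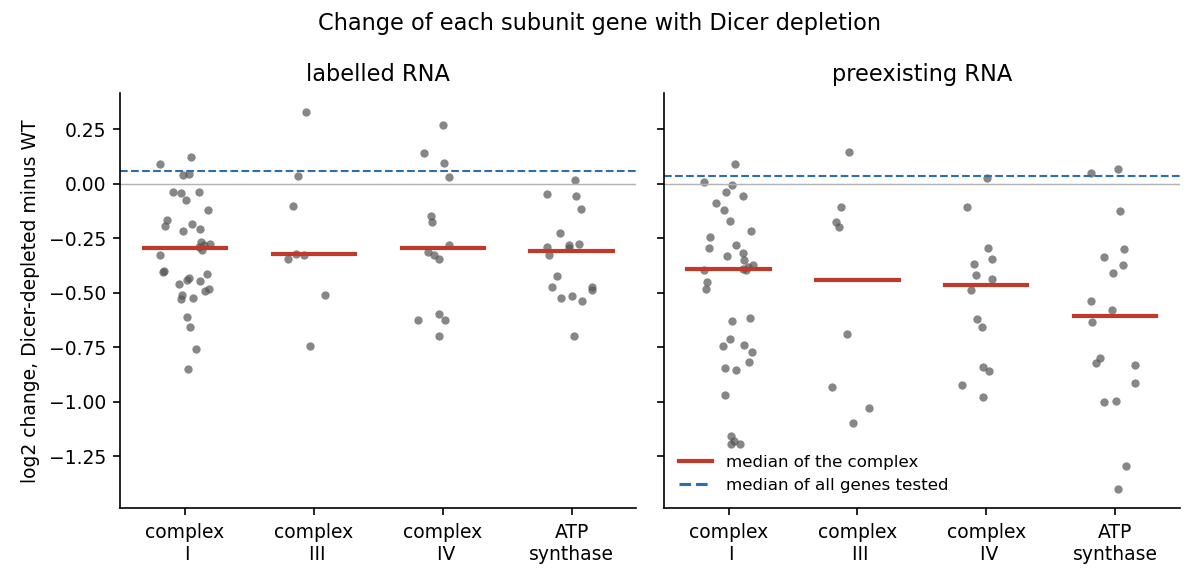
Log2 difference on log2(TPM + 1), Dicer-depleted minus WT (vertical axis), of each subunit gene by complex (horizontal axis) in labelled and preexisting RNA; points are genes, red lines are medians of a complex and the dashed blue line is the median of all 21821 genes tested. All 8 medians lie below the dashed line, from -0.30 to -0.32 in labelled and from -0.39 to -0.61 in preexisting RNA.

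The lower preexisting levels moved with 2 properties of the data. Without the 4 libraries that had over 1000 genes listed at 0, 0 members passed, 60 of 76 were negative, and the median was -0.17 beside 0.09 over all tested genes. Members are also short: their median spliced length was 764 bases, against 2906 in tested coding genes, and 63.2% were under 1000 bases, against 8.02%. The 853 other coding genes under 1000 bases had a preexisting median of -0.33. The 48 short members had -0.53 and the 28 longer ones -0.34. Other families had medians of -0.69 for 76 cytosolic ribosomal protein genes, -0.39 for 78 mitochondrial ribosomal protein genes, of which 1 fell, and -0.36 for 38 proteasome subunit genes. The part of completeness or length in the members' result was not tested.

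In labelled RNA, no member passed the test, although 65 of 76 had a negative difference. The median was -0.31, beside 0.06 over all tested genes, where 0.0367% fell and 0.0917% rose. By limma the smallest adjusted p among the members was 0.244. Complex medians were nearly the same, at -0.31 for ATP synthase, -0.30 for complex IV, -0.32 for complex III and -0.30 for complex I. The most negative were Ndufb10 at -0.85 (SE 0.428), Ndufa7 at -0.76 (SE 0.216), Uqcr11 at -0.75 (SE 0.336), Atp5g1 at -0.70 (SE 0.395) and Cox6b2 at -0.70 (SE 0.282). The highest were Uqcrb at 0.33 (SE 0.252), Cox7a1 at 0.27 (SE 0.447), Cox7c at 0.14, Ndufs4 at 0.12 and Cox6b1 at 0.09.

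Cox7b was the one member separated in both fractions. Its labelled values were 90.6, 151, 100 and 147 TPM in depleted libraries and 182, 236, 164 and 164 TPM in WT (log2 difference -0.63, SE 0.181, limma adjusted p = 0.244). The other labelled genes without overlap were Cox7a2l, which takes part in joining complexes III and IV, and the complex I accessory genes Ndufa6, Ndufb3 and Ndufv3. Ndufa6 had 4.37, 4.60, 4.10 and 5.37 TPM in depleted and 6.05, 10.1, 6.79 and 7.81 TPM in WT libraries. These 5 members compare with 4.50% of tested genes that were lower without overlap. None was higher without overlap, where 10.9% of tested genes were.

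The labelled comparison was also read at each pulse length. With 15 minute libraries alone 46 of 76 members were negative with a median of -0.07, and with 10 minute libraries alone 70 were, with a median of -0.50. In a fit of the 8 labelled libraries by genotype and time, chosen after the values were seen, 2 members fell at 10 minutes, where 0.912% of tested genes fell and 0.449% rose. These were Atp5d, the delta subunit of ATP synthase (log2 difference -1.20, SE 0.170, limma adjusted p = 0.0386), and Ndufs7, a core subunit with an iron-sulfur cluster (-1.36, SE 0.205, limma adjusted p = 0.0414). Atp5d was at 11.8 and 12.3 TPM in depleted and 30.5 and 27.2 TPM in WT libraries at 10 minutes, and at 32 and 26.2 TPM in depleted and 26.7 and 26.3 TPM in WT libraries at 15 minutes. When both fractions shared 1 fit, 0 members passed at 10 minutes. At 15 minutes 0 members passed, where 0.0183% of tested genes fell and 0.0367% rose.

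The change in the genotype difference between the pulses was itself not past the threshold for any member. It was positive for 64 of 76, with a median of 0.43 beside 0.09 over all tested genes. By limma the smallest adjusted p among the members was 0.566, where 0.0229% of tested genes passed upwards and 0.0367% downwards. In this difference Ndufs7 had 1.40 (SE 0.290), Atp5d 1.32 (SE 0.241) and Cox4i1 1.59 (SE 0.439). Cox4i1, chosen as an example after its values were seen, had 354 and 327 TPM at 15 minutes and 94.5 and 110 TPM at 10 minutes in depleted cells. In WT it had 429 and 214 TPM at 15 minutes and 302 and 250 TPM at 10 minutes. Its genotype difference was 0.17 (SE 0.310) at 15 minutes and -1.42 (SE 0.310) at 10 minutes. Both depleted cultures differed between the pulses in one direction, and the WT cultures in opposite ones.

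Over both genotypes, most members had higher values after 15 than after 10 minutes of labelling, and none passed the test. The log2 difference was positive for 72 of 76, with a median of 0.46 beside 0.01 over all tested genes. By limma 0 members passed in a fit that does not pair the libraries of a culture. In that fit 0.0367% of tested genes rose and 0.0321% fell. With the culture as a block 0 members passed as well. In depleted cells the median was 0.63 with 70 positive and 0 past the threshold, where 0.0229% of tested genes rose and 0.0275% fell. In WT it was 0.18 with 63 positive and 0 past the threshold, where 0.0183% rose and 0.00458% fell. The highest were Uqcr11 at 1.01 (SE 0.310), Ndufb7 at 0.97 (SE 0.274), Cox4i1 at 0.93 (SE 0.219), Cox6a1 at 0.87 (SE 0.234) and Atp5k at 0.83 (SE 0.255). The lowest were Ndufc1 at -0.12, Atp5c1 at -0.03, Atp5f1 at -0.02, Ndufs1 at -0.004 and Ndufa12, an accessory subunit of complex I, at 0.001. The 853 other short coding genes had a median of 0.24, the cytosolic ribosomal protein genes 0.49 and the mitochondrial ones 0.21.

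Preexisting and labelled RNA were compared within each genotype to see which subunit mRNAs stood higher in older than in new RNA. In Dicer-depleted cells 2 members were higher in preexisting RNA and 19 lower, where 11.0% of all tested genes were higher and 30.1% lower. In WT cells 3 were higher and 5 lower, where 7.98% were higher and 26.1% lower. These shares are over coding and noncoding entries together, so they are not a background of mRNAs alone. The median of the members was -0.44 in depleted cells and -0.17 in WT, beside -0.28 and -0.24 over all tested genes. The culture was also fitted as a block, which suits this comparison because both fractions come from one culture. The counts were then 2 higher and 29 lower in depleted cells and 2 higher and 13 lower in WT. The share of all tested genes called in that fit is not given here. The larger counts are therefore not read as a trait of the members. Leaving out 1 culture left 2 to 3 members past the threshold in depleted cells and 0 in WT.

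Atp5b was higher in preexisting RNA in both genotypes. It averaged 6095 ± 681 TPM in preexisting and 3295 ± 194 TPM in labelled RNA of depleted cells (SD, n = 2; log2 difference 0.88, limma adjusted p = 0.00144), and 5847 ± 235 TPM and 3570 ± 441 TPM in WT (log2 difference 0.72, limma adjusted p = 0.00429). The others on this side were Uqcrc1, a core protein of complex III, in depleted cells (0.92, SE 0.244), and Atp5d (0.90, SE 0.271) and Atp5a1 (0.52, SE 0.168) in WT. Atp5a1 did not pass with the culture as a block (limma adjusted p = 0.0594). On the other side Ndufb2 averaged 6.01 ± 0.598 TPM in preexisting and 23.9 ± 1.73 TPM in labelled RNA of depleted cells (SD, n = 2; log2 difference -1.89, limma adjusted p = 0.00502), and 10.2 ± 5.72 TPM and 24.1 ± 3.39 TPM in WT (log2 difference -1.32, limma adjusted p = 0.0261). Ndufa7, Ndufb2, Ndufb4 and Cox6c, a small subunit of complex IV, were lower in preexisting RNA in both genotypes, and Ndufa5 was in WT. Protein-coding entries carried 18.0% of the signal of Ndufa7, 41.1% of Ndufb2, 43.0% of Ndufb4, 36.3% of Ndufa5 and 83.0% of Cox6c. Apart from Cox6c, these levels rest mostly on entries annotated as noncoding. In depleted cells the lower set also held, among others, the ATP synthase genes Atp5e, Atp5g2, Atp5j, Atp5k and Atp5l. It further held the complex III genes Uqcr10, Uqcr11, Uqcrb and Uqcrq. Protein-coding entries carried from 42.0% (Uqcr11) to 100% (Atp5g2 and Atp5l) of the signal of these genes. As 30.1% of all tested genes were lower in depleted cells, the set is not read as a trait of a complex.

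**Figure D5:**
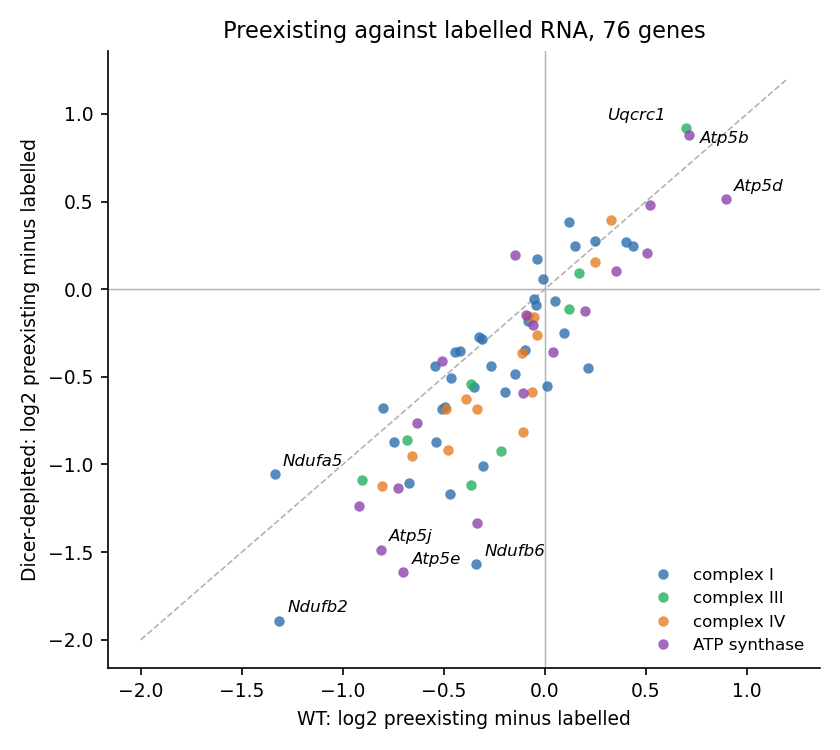
Log2 difference on log2(TPM + 1), preexisting minus labelled, of each of the 76 members in Dicer-depleted cells (vertical axis) and WT cells (horizontal axis), coloured by complex; the dashed line marks equal values. Atp5b and Uqcrc1 lie in the upper right, Ndufb2 in the lower left at -1.89 and -1.32, and 59 of 76 members lie below the dashed line.

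These directions depended on scaling. After each library was centred on the median of its tested genes, the median of all genes was 0.26 in depleted cells and 0.25 in WT. The members' median was then 0.10 in depleted cells (9 higher, 2 lower) and 0.32 in WT (10 higher, 0 lower). Scaling to protein-coding genes gave 1 higher and 36 lower in depleted cells and 1 higher and 16 lower in WT. The shares of all tested genes called under each scaling are not given here. These counts show how calls depend on scaling and no trait of the members. The change of the preexisting-to-labelled difference with genotype was negative for 59 of 76 members, with a median of -0.19 beside -0.02 over all genes, and after centring -0.14 beside 0.03. By limma 0 members passed, where 0% of tested genes rose and 0.00458% fell. Ndufb6 had the most negative value, -1.23 (SE 0.272, limma adjusted p = 1.0, unadjusted p = 0.00203), followed by Atp5g2 at -1.0 and Atp5e at -0.91. The highest was Atp5h at 0.34 (SE 0.510).

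Intronic signal in labelled RNA gave a second readout of the same genes, for 64 members with a mean of at least 1 TPM of intronic signal. Of these, 47 had a positive difference with a median of 0.15, beside 0.28 over the 12472 genes tested, and 1 rose, where 4.19% of genes rose and 0.0481% fell. That gene was Cox6b1 (chromosome 7, 30616861 to 30626151, minus strand), with 3.39, 4.75, 4.42 and 3.57 TPM of intronic signal in depleted libraries and 2.07, 1.97, 2.57 and 2.11 TPM in WT (log2 difference 0.66, SE 0.114, limma adjusted p = 0.0340). The genotypes did not overlap there, while its exonic labelled level, at 23.3 ± 1.38 TPM in depleted cells and 20.0 ± 2.23 TPM in WT, was not past the threshold. Intronic entries held 18.5 to 23.3% of a labelled library in depleted cells and 15.5 to 18.4% in WT. After centring no member passed, and the members' median was -0.12, beside 0.002 over all genes tested. Leaving out any 1 culture also ended the call. Uqcrb at 0.79 (SE 0.245) had a larger difference than Cox6b1 and Uqcrh at 0.65 (SE 0.190) a similar one, neither past the threshold, and Cox6b2 at -1.11 (SE 0.484) was the lowest.

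Promoters of the members were searched for motifs of factors known to drive respiratory genes, on both strands of the 300 bases from 250 before to 50 after the annotated start in RefSeq (GRCm38.p6). Sequences matched 62 of the member symbols. The core of NRF1, nuclear respiratory factor 1, which is GCGCA and GCGC parted by any 1 base, stood in 22.6% of them, against 11.2% of 8815 promoters of tested coding genes. The core AAGATGGC of YY1 stood in 12.9% against 5.17%, the ETS core CCGGAAG, read by GABP, in 21% against 19.7%, the SP1 core GGGCGG in 38.7% against 65.0%, and TATAAA in 8.06% against 6.81%. Any of the NRF1, ETS and YY1 cores stood in 31 of 62 member promoters, against 32.1% of the promoters of tested coding genes. A match describes letters and not binding.

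The promoters of 3 members named above are shown with NRF1, ETS or YY1 matches in capitals, Ndufb6 because it fell in preexisting RNA, and Ndufb4 and Uqcrc1 because they carry NRF1 matches and lie on opposite sides of the comparison of fractions.
Ndufb6, chr4:40279372-40279671, minus strand: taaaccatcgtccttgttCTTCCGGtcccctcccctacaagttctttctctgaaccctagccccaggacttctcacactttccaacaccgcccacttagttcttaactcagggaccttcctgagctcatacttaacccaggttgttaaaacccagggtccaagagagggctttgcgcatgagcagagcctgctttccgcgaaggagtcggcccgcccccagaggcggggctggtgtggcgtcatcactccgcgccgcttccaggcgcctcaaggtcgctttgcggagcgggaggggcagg
Ndufb4, chr16:37654319-37654618, minus strand: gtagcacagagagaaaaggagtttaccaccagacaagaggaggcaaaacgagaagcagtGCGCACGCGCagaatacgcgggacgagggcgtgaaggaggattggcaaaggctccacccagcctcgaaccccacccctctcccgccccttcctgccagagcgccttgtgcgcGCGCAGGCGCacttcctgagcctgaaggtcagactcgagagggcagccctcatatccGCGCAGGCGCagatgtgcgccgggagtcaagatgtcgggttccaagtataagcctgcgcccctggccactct
Uqcrc1, chr9:108936398-108936697, plus strand: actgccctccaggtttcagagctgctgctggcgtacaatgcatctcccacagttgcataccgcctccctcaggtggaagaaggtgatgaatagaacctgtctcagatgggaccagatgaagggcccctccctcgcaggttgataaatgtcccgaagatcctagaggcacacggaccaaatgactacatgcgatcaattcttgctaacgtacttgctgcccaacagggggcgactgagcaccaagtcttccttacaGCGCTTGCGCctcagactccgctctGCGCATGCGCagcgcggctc
The Ndufb6 window holds 1 ETS match, read on the opposite strand, and no NRF1 match. The Ndufb4 window holds 3 NRF1 matches, and the Uqcrc1 window holds them in 2 places, of which one reads the same on both strands.

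Related genes outside the members were taken from lists, and none of those tested passed in preexisting or labelled RNA. The 8 complex I assembly factors (Ndufaf genes) had a preexisting median of -0.35 with 7 negative. The exception was Ndufaf6 at 1.07 (14.7 TPM in depleted cells and 6.59 TPM in WT, limma adjusted p = 0.0939). The 4 genes of complex II, which feeds electrons from succinate, had a median of -0.42. Cyc1 and Cycs, for cytochromes c1 and c, were at -0.60 and -0.12. Cytochrome c1 is itself a subunit of complex III, which the choice of members by symbol left out. Of 23 other assembly factors 12 were negative, with a median of -0.06. The most negative was Uqcc2, a complex III assembly factor, at 4.41 TPM in depleted cells and 15.6 TPM in WT (log2 difference -1.79, limma adjusted p = 0.0563).

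Other metabolic genes did not all lie on the same side. The 13 citrate cycle genes had a preexisting median of 0.00, with Cs, citrate synthase, at 0.72 (limma adjusted p = 0.160), while 13 of 15 glycolytic genes were negative, with a median of -0.64. Of 12 genes for mitochondrial transcription and replication 8 were negative, among them Tfam, the packaging factor of mitochondrial DNA, at -1.07 (limma adjusted p = 0.191). The 7 tested nuclear regulators of respiratory genes were all slightly positive, from 0.07 for Yy1 to 0.28 for Gabpb1.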

How the data were processed

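Libraries were made from 10 ng of RNA with Ovation RNA-Seq, per the labels' protocols. Per the labels' protocols, STAR 2.5.0 set aside rRNA reads and mapped the remainder to introns and exons, and RSEM gave the levels; mm10 is per the submitters' processing notes. The annotation release and strandedness are not given in the sources used here. The deposited values are a signal named TPM of which every column sums to 10000000 to the nearest 1000, so they were divided by 10. Each of the 16 columns was used. Exonic and intronic transcript entries were summed per gene with GENCODE M21; members had 319 exonic entries. The sequencing depth is unknown.

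Genes with a mean of at least 1 TPM were tested with limma 3.58.1 (trend, two-sided) in R 4.3.3 on log2(TPM + 1), with a pseudocount of 1, which understates changes of low genes. Both pulse lengths of a culture and fraction were averaged on the log2 scale, giving 8 values in 4 groups with one estimate of spread. P-values were adjusted by Benjamini and Hochberg over all genes tested, with a threshold of 0.05. The fit was tested on simulated data. Python 3.11.15 and matplotlib 3.10.9 were used. Named members were those past the threshold between genotypes, the 5 largest and 5 smallest differences per comparison, the 3 most abundant per complex, subunit c and tissue isoforms, and genes at the level limit; others named were chosen after their values were seen. Members and lists were chosen with earlier results of these data known.

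The labels do not tie same-numbered depleted and WT cultures to each other, and with 2 pairs the data cannot settle it, so they were not paired. Labelled and preexisting RNA of one number and genotype come from one culture, as the labels give it; the deviations of the 2 fractions correlated at 0.0512 in depleted cells and 0.397 in WT over 21821 genes. Shared sequence was measured as the share of 31-base words found in another gene. Small RNA libraries were not used here. The values of 1 member are not reported here.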

Additional observations from a re-analysis of the deposited data

How the results depend on the processing

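No alternative reversed the preexisting call of Ndufb6, but its count of 1 member became 0 without the filter on low values, with centring on the median, with scaling to protein-coding genes, with only the groups compared, with 10 or 15 minute libraries alone, with TPM averaged before the log2 step, without the 4 libraries with over 1000 genes at 0, and without any 1 culture (0 to 0). Averaging TPM first, protein-coding isoform entries and leaving out the 4 libraries were chosen after the data were seen. Deviations of same-numbered depleted and WT cultures correlated at 0.162 in labelled and 0.219 in preexisting RNA over genes, and with a replicate block on culture number the count stayed at 1, also with a pseudocount of 0.1 and with protein-coding isoform entries. The members' preexisting median ran from -0.75 without WT culture 2 to -0.17 without the 4 libraries, and the labelled median from -0.50 with 10 minute to -0.07 with 15 minute libraries; it was -0.15 without WT culture 1 and -0.47 without WT culture 2.

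For preexisting against labelled RNA in WT, 8 members became 2 without the filter, 17 with scaling to protein-coding genes, 4 with only the groups compared, 15 with the replicate block by culture, 5 with TPM averaged first, 5 with coding isoforms and 0 without either WT culture (0 to 0). In depleted cells 21 became 11 with centring, 37 with scaling to coding genes, and 2 to 3 without 1 depleted culture. The intronic count of 1 became 0 with a pseudocount of 0.1 or centring, 2 without the filter, 2 with the replicate block, and 0 without any 1 culture (0 to 0). Where a culture was left out, the lone sample was assumed to vary like the other groups. The counts of 0 for labelled RNA, the ratio and the 2 pulse lengths stayed at 0 under each alternative run; the separate fit of the labelled libraries by genotype and time had 2 members past the threshold at 10 minutes. The shares of all tested genes called under these alternatives are not given here. Causes of these changes were not tested.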
